A study of Mus musculus with 6 samples.

Results

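The enzymes that make UDP-N-acetylglucosamine, UDP-glucuronate and hyaluronan were examined in the epididymal fat pad of C57BL/6J males, aged 12 weeks, 3 hr after an injection of CL-316,243 at 1 mg per kg body weight or of saline. CL-316,243 is an agonist of the beta3-adrenergic receptor of fat cells; 1 passage of the labels spells it CL316,246. RNA of 6 mice per treatment was combined, so each treatment is 1 pool of the whole depot with all its cell types. Both pools were hybridised together on 6 two-colour arrays, with the CL-316,243 pool in channel 1 on arrays 1, 2 and 3 and in channel 2 on arrays 4, 5 and 6. The 9 genes were listed by name, as enzymes of these pathways, and were selected on their mean log ratio over the 6 arrays, with results of these arrays in view: Gfpt1, Gfpt2, Gnpnat1, Pgm3, Uap1, Ugp2, Ugdh, Has1 and Has3. All 9 had a probe, 1 each, among 13409 named genes on the array, and all 9 were among the 12912 genes with enough values to test. Because every array carried the same 2 pools, each SE and p-value measures array-to-array spread and says nothing of the spread between mice. The placement of values described below aligns arrays by their likeness, so it can make each SE and p-value too small.

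In the hexosamine pathway, a small share of the cell's fructose phosphate is joined to nitrogen from glutamine, acetylated, and turned into UDP-N-acetylglucosamine, the sugar donor for N-glycans, O-GlcNAc and several polysaccharides. A parallel branch turns glucose phosphate into UDP-glucose and then UDP-glucuronate. Hyaluronan synthases at the plasma membrane join both sugars in alternation into hyaluronan, an unsulfated chain of the extracellular matrix that fat cells and the stromal cells around them secrete.

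The sources used here do not give the pool that is the numerator of the log ratios. "Higher" therefore means higher in that numerator, and each direction turns if it is the saline pool. Among 77 genes whose mean reached 1 in size in both orientations, 76 had 1 sign in both; the placement described next aligns arrays by their likeness and so favours such agreement. The log base, also not given,  was taken as 2; natural logs would make each value 1.44 times larger. The values of a column had moved up where spots were dropped, and each was put back on its probe number by a model; between 64.4% (array 2) and 99.8% (array 6) of probes kept a value. After that, rank correlations over probes averaged 0.28 between arrays of 1 orientation and 0.11 between orientations. The ratios hold no level of a gene, so the tissue label could not be checked against marker levels. Of 8 adipocyte markers tested, 6 had a positive mean and 2 a negative one, with a median of 0.28. The largest in size, Cidec, was at 1.17 ± 0.33 (SE), with 3.17 on array 3 and 0.07 to 0.94 on its other arrays. None of the 8 markers passed the limma test, against 4 at an unadjusted p under 0.05. Over the whole table, 2385 of 12912 genes had an unadjusted limma p under 0.05, the background for this and later such counts.

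Of the 9 enzymes, 4 had ratios far from 0, and each sits at a different step: Gfpt2 at the entry, Uap1 at the last step to UDP-N-acetylglucosamine, Ugdh at the step to UDP-glucuronate, and Has1 at the polymer. Their mean log2 ratios lay between 1.59 and 1.82, or 3.01-fold to 3.54-fold. The other 5, Gfpt1, Gnpnat1, Pgm3, Ugp2 and Has3, lay between -0.24 and 0.32. The median of the 9 was 0.32, against -0.012 for all genes tested; it was 0.13 without array 1, where 5 were tested, 0.79 without array 3, where 6 were, and 0.10 over the 5 with values on all arrays. In the limma fit over all genes the 4 were called higher (adjusted p under 0.05), where 1.89% of all genes were called higher and 1.16% lower; a mean of at least 1 in size, reached by the same 4, was reached by 0.984% of all genes. This contrast was used to choose the genes, so the count and the values are a description and carry no test. Whether more RNA per cell or more cells of a type lies behind a ratio cannot be told apart in pooled whole tissue.

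**Figure D1:**
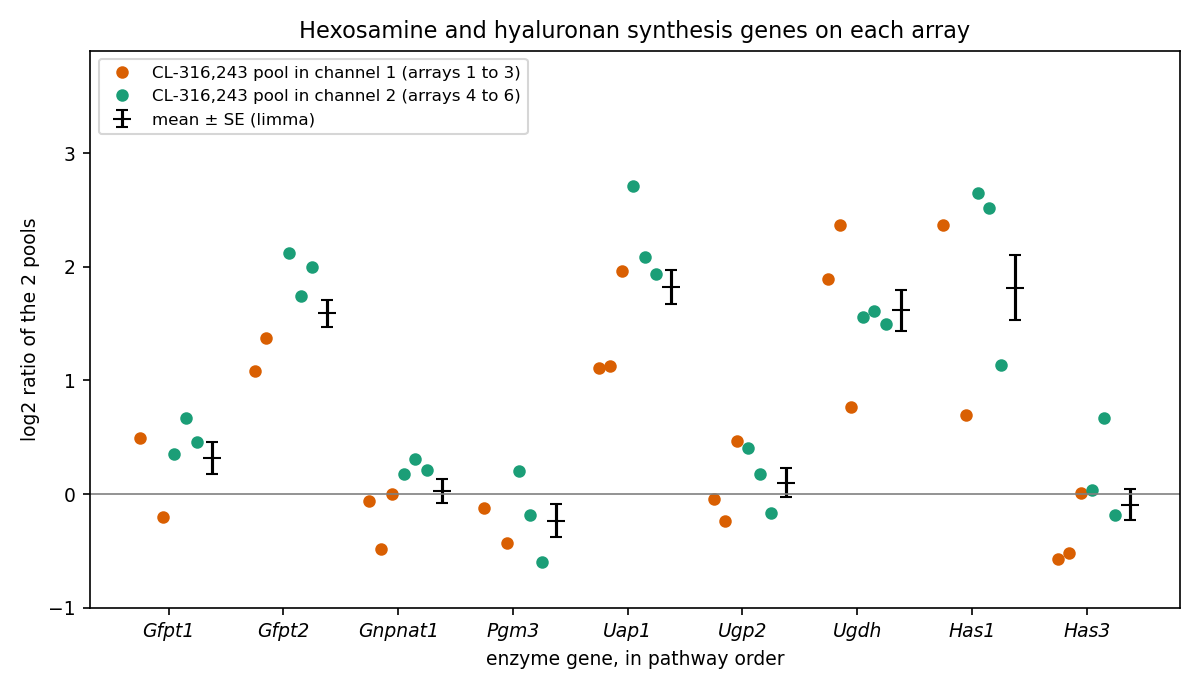
Log2 ratio of both pools (vertical axis) for the 9 enzyme genes in pathway order; each point is 1 array, coloured by dye orientation, and black marks are the limma mean with its SE. Uap1, Ugdh, Gfpt2 and Has1 lie at or above 0.70 on every array where a value was kept. The kept values of the other 5 genes lie between -0.60 and 0.67, with Gfpt1 positive on 4 of its 5 arrays. A Gfpt1 value of 0.79 on array 2 (posterior 0.918) was not kept.

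Gfpt1 and Gfpt2 encode glutamine-fructose phosphate transaminases, which commit sugar to the pathway. For Gfpt2 the log2 ratios were 1.08 and 1.37 on arrays 1 and 2 and 2.12, 1.74 and 2.00 on arrays 4, 5 and 6, with no value kept on array 3. All 5 were positive, and the arrays with the agonist pool in channel 2 were the higher ones. The mean was 1.59 ± 0.12 (SE, n = 5 arrays). For Gfpt1 the ratios were 0.49 and -0.20 on arrays 1 and 3 and 0.35, 0.67 and 0.46 on arrays 4 to 6, with a mean of 0.32 ± 0.14 (SE, n = 5). The ranges of the kept values of the isozymes did not overlap. The Gfpt2 values on arrays 1 and 2 carry the limit of placement given in the next paragraph. On the 4 arrays that measured both, Gfpt2 exceeded Gfpt1 by 1.24 ± 0.52 (SD), between 0.60 and 1.77.

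The Gfpt2 values on arrays 1 to 3 rest partly on Gfpt2 itself. The model put the values 1.08, 1.37 and 0.89 at that probe with posterior probabilities of 0.971, 0.992 and 0.937. When the probes of the 9 enzymes were masked, so that no enzyme value helped to place itself, neighbouring values of 0.61, -0.87 and 0.31 were preferred instead, with posteriors of 0.756, 0.938 and 0.713. None of those reached the minimum of 0.95. The 3 values with the agonist pool in channel 2 were the same in both placements, at posteriors of 1, with a mean of 1.95. Uap1, Ugdh, Gnpnat1, Ugp2, Has3, Gfpt1 and Pgm3 had the same value on every array in both placements. For Gfpt1 and Pgm3 the value on array 2 was under the minimum in both. Has1 differed on array 2 only. With all probes used no value was placed there, and with the enzymes masked -1.3 was preferred, at a posterior of 0.188.

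**Figure D2:**
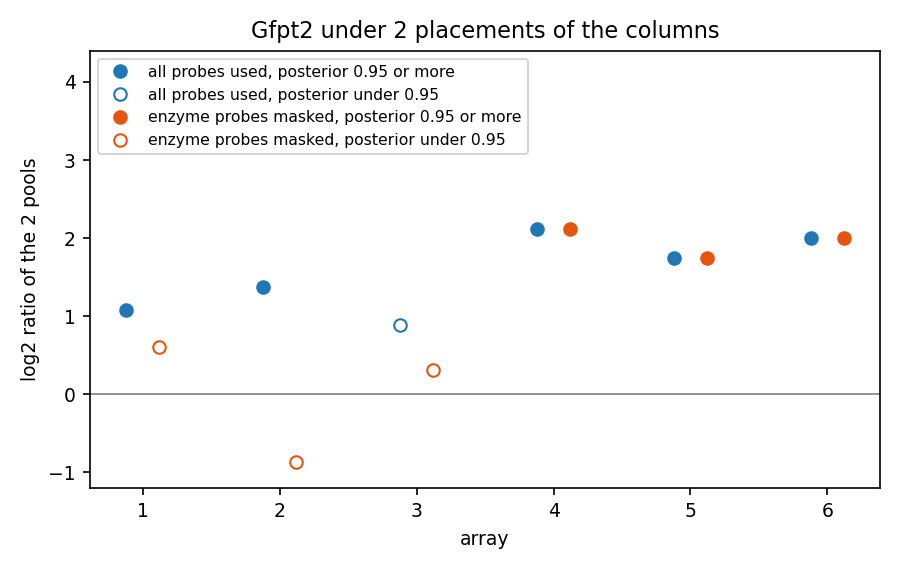
Log2 ratio of both pools at the Gfpt2 probe on each array (horizontal axis), with columns placed from all probes (blue) or with the enzyme probes masked (orange); open circles have a posterior under 0.95. The pairs coincide on arrays 4, 5 and 6, at 2.12, 1.74 and 2.00, and differ on arrays 1, 2 and 3.

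Gnpnat1 acetylates glucosamine phosphate, and Pgm3, a phosphoglucomutase family member, moves the phosphate of the product. The Gnpnat1 ratios were -0.06, -0.48 and 0 on arrays 1 to 3 and 0.18, 0.31 and 0.21 on arrays 4 to 6, a mean of 0.03 ± 0.11 (SE, n = 6). Both orientations stayed close to 0, on either side of it. The Pgm3 ratios were -0.12 and -0.43 on arrays 1 and 3 and 0.20, -0.18 and -0.60 on arrays 4 to 6, a mean of -0.24 ± 0.15 (SE, n = 5). Only array 4 was positive. At both steps between Gfpt2 and Uap1 the mean was smaller than the SD between arrays, which was 0.28 for Gnpnat1 and 0.31 for Pgm3.

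Uap1, UDP-N-acetylglucosamine pyrophosphorylase, makes the finished donor sugar. Its ratios were 1.11, 1.13 and 1.96 on arrays 1 to 3 and 2.71, 2.09 and 1.94 on arrays 4 to 6. All 6 arrays were positive, and array 3 reached the level of the opposite orientation while arrays 1 and 2 were lower. The mean was 1.82 ± 0.15 (SE, n = 6), which ranked 22nd among positive ratios of all genes tested. On every array Uap1 exceeded Gnpnat1, by 1.80 ± 0.45 (SD, n = 6), and on the 5 arrays that measured Pgm3 it exceeded that gene by 2.19 ± 0.55 (SD). The 6 probes numbered nearest to that of Uap1 had means between -0.37 and 0.03. Such neighbour means reached 0.77 for Ugdh, 0.91 for Gnpnat1 and 1.07 for Ugp2, and at most 0.28 (Has1) for the rest.

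Because Gfpt2, Uap1, Ugdh and Has1 shared a direction, their promoter windows were read for motifs of factors known in cAMP and stress signalling. The RefSeq table (GRCm38.p6) holds windows from 250 bases before to 50 bases after an annotated start; 7 of the 9 genes had a window, 8 windows in all, and Gnpnat1 and Has3 had none. Both strands were searched. Uap1 lies on the minus strand, and its window is chr1:170174915-170175214. Capitals mark TGACG, the short form of the cAMP response element, at positions -61 and 2 from the start, and CGTGG, the reverse complement of CCACG, a short form of the endoplasmic reticulum stress element, at -123.
Uap1 promoter: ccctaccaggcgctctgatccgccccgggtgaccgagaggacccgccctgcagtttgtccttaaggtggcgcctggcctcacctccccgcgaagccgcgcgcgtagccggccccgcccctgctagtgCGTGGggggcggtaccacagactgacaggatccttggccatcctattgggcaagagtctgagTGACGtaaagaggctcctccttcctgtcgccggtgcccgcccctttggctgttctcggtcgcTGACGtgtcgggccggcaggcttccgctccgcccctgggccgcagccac
TGACG was in 20.8% of the 32851 windows searched and in 2 of the 8, those of Uap1 and Has1. These 32851, called all windows here, leave out the windows of a single chromosome. CCACG was in 32.8% of all windows and in 5 of the 8, those of Gfpt1, Pgm3, Uap1, Ugdh and 1 of the 2 of Ugp2. The 8 windows were rich in G and C, at 57.0% to 76.0% against a median of 52.7% for all windows.

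Ugp2, UDP-glucose pyrophosphorylase, makes the UDP-glucose that also feeds glycogen, and Ugdh, UDP-glucose dehydrogenase, oxidises it to UDP-glucuronate. Ugdh ratios were 1.89, 2.37 and 0.77 on arrays 1 to 3 and 1.56, 1.61 and 1.5 on arrays 4 to 6. Array 3 was the low one and array 2 the high one; arrays 4 to 6 lay between 1.5 and 1.61. The mean was 1.62 ± 0.18 (SE, n = 6). Ugp2 ratios were -0.04, -0.24 and 0.47 on arrays 1 to 3 and 0.41, 0.18 and -0.17 on arrays 4 to 6, positive on 3 of 6 arrays, with a mean of 0.10 ± 0.13 (SE). Ugdh exceeded Ugp2 on all 6 arrays, by 1.52 ± 0.77 (SD), and by as little as 0.30 on the array where they were nearest.

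Has1 and Has3 encode hyaluronan synthases, which differ in activity and in the chain length they make. The Has1 ratios were 2.37 and 0.70 on arrays 1 and 3 and 2.65, 2.52 and 1.14 on arrays 4 to 6; no value was placed on array 2. All 5 were positive but spread more widely than those of the other 8 genes, with arrays 3 and 6 low in their orientations. The mean was 1.82 ± 0.28 (SE, n = 5), and 1.71 without array 5, where Has1 no longer passed the limma threshold; it was 1.68 without array 4 and 2.06 without array 6. Has3 ratios were -0.57, -0.52 and 0.01 on arrays 1 to 3 and 0.04, 0.67 and -0.18 on arrays 4 to 6, a mean of -0.09 ± 0.14 (SE, n = 6). Has1 exceeded Has3 on all 5 arrays, by 1.88 ± 0.92 (SD), between 0.69 and 2.94. The remaining synthase Has2, which was looked up after the values of the others were seen, had values on 4 arrays, 0.23, -0.10, 1.00 and 0.29 on arrays 1, 3, 5 and 6, with a mean of 0.35 ± 0.16 (SE, limma adjusted p = 0.306).

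The Has1 window, chr17:17855139-17855438 on the minus strand of GRCm38.p6, is shown because it holds the full palindromic cAMP response element TGACGTCA, in capitals, from position -83.
Has1 promoter: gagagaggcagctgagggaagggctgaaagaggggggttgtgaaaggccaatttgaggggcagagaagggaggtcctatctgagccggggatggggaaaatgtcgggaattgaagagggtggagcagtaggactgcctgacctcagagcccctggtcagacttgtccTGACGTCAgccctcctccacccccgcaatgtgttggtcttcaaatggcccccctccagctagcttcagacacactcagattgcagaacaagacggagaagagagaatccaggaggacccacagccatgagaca
That element was in 1.79% of all windows and in none of the other 7; its letters include TGACG on both strands. A match in a window of this length is a description of its letters. TGACGTGG, an unfolded protein response element, was in 0.676% of all windows, TGATGNAAT, a C/EBP-ATF element, in 0.965%, CACGTG, an E-box, in 7.15%, and the glucocorticoid response element in 0.00913%; the 8 windows held none of them. ACGTGC, a core of the hypoxia response element, was in 5.91% of all windows and in 1 window of Ugp2. The Gfpt2 window held none of the motifs searched.

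In order of their mean ratios the genes ran Uap1, Has1, Ugdh, Gfpt2, Gfpt1, Ugp2, Gnpnat1, Has3 and Pgm3. Read array by array, Gfpt2 exceeded Gfpt1 on each array that measured both, and every other pair of neighbours in this order differed by less than the SD of its difference, with the sign differing between arrays. Further apart, Gfpt1 exceeded Pgm3 on all 5 arrays that measured both, by 0.58 ± 0.39 (SD). Among the values kept, the lowest of the first 4 was 0.70 (Has1 on array 3). The highest of the last 5 was 0.67 (Gfpt1 and Has3, both on array 5). This gap depends on the posterior minimum, which left out a Gfpt1 value of 0.79 on array 2 (posterior 0.918). With the enzymes masked, the values preferred for Gfpt2 on arrays 1 to 3 were 0.61, -0.87 and 0.31. These lay below 0.70, and none reached the minimum. By array, the number of the 9 with a ratio of at least 1 was 4 on arrays 1, 4, 5 and 6, 3 on array 2, where 6 were measured, and 1 on array 3, where 8 were measured; between 1.44% and 3.34% of all genes reached 1 on an array.

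The difference between dye orientations was not used to choose the genes and could be tested. None of the 9 passed (limma, adjusted p under 0.05), and 2 had an unadjusted p under 0.05. Of the 12912 genes, 1 passed (0.00774%) and 1342 had an unadjusted limma p under 0.05. The Uap1 mean was 1.40 on arrays 1 to 3 and 2.25 on arrays 4 to 6, a difference of 0.85 ± 0.30 (SE, limma adjusted p = 0.421). For Gfpt2 the means were 1.23 and 1.95, a difference of 0.73 ± 0.25 (SE, limma adjusted p = 0.413). Ugdh differed least among the 4 high genes, with means of 1.68 and 1.56 and a difference of -0.12 ± 0.36 (SE, limma adjusted p = 0.923). Has1, at 1.53 and 2.10, differed by 0.57 ± 0.57 (SE, limma adjusted p = 0.725). A difference of the size seen for Uap1 or Gfpt2 is thus neither shown nor shown to be absent, and the Gfpt2 mean on arrays 1 and 2 carries the limit of its placement given above.

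**Figure D3:**
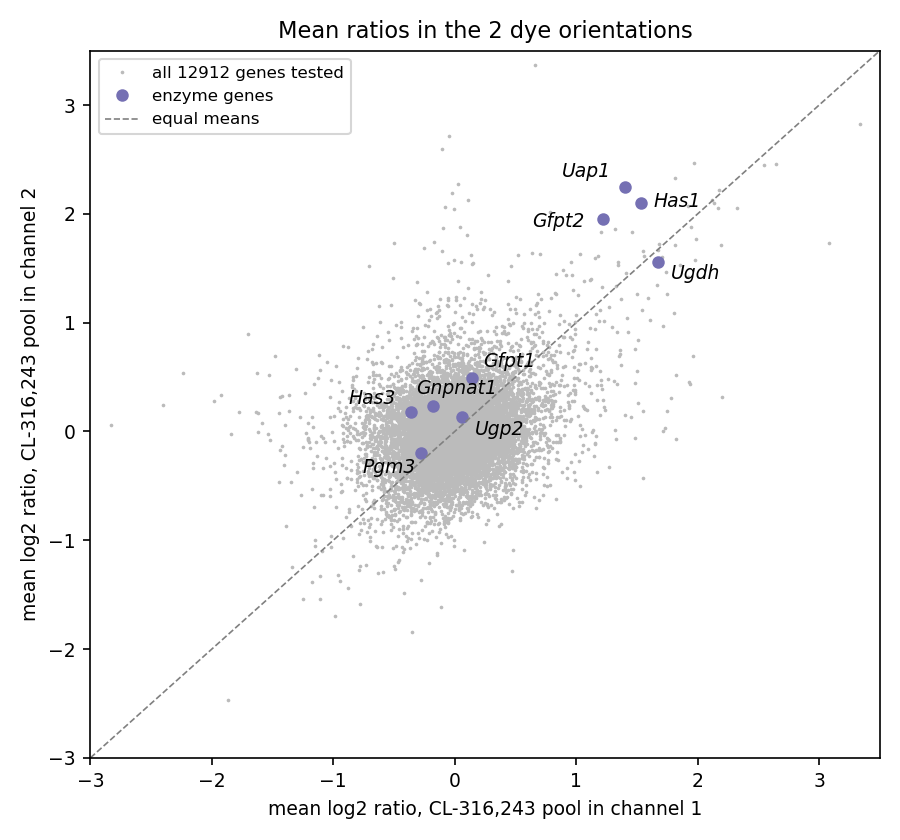
Mean log2 ratio with the CL-316,243 pool in channel 1 (horizontal) and in channel 2 (vertical) for all 12912 genes tested (grey; genes beyond the axes are not drawn) and the 9 enzyme genes (purple); the dashed line marks equal means. Uap1, Has1, Gfpt2 and Ugdh lie apart at upper right, with means of 1.23 to 1.68 and 1.56 to 2.25, and the other 5 lie inside the cloud of all genes.

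Other genes of the surrounding pathways were taken from lists that were chosen with earlier results of these data known. The counts in these lists are therefore a description. Of 136 tested in all, 4 were called higher in the limma fit (2.94%, against 3.05% of all genes called in either direction), and none was lower. An unadjusted limma p under 0.05 was seen for 35 of the 136 and for 2385 of all 12912 genes. The median ratio of the 136 was 0.001. In the list of glucose entry, hexose phosphates and glycogen, 1 of 15 passed, Hk2, a hexokinase that phosphorylates glucose. Its ratios were 0.65, 0.23 and 1.46 on arrays 1 to 3 and 0.65, 0.48 and 1.19 on arrays 4 to 6, positive throughout, with a mean of 0.78 ± 0.17 (SE, n = 6, limma adjusted p = 0.0385). It did not pass without array 1 (0.81), array 4 (0.81), array 5 (0.85) or array 6 (0.67). Glul, glutamine synthetase, at -0.55 ± 0.15 and the glycogen phosphorylase Pygm at 0.39 ± 0.13 did not pass. The median of this list was -0.05.

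Among genes that salvage or use UDP-N-acetylglucosamine, none of 14 passed the limma test and 3 had an unadjusted p under 0.05; the median was -0.11. Gnpda2, a glucosamine phosphate deaminase that runs against the pathway, was at -0.68 ± 0.16 (SE, limma adjusted p = 0.0515), negative on 5 of 6 arrays. It passed in 7 of 17 alternatives, with the largest size among single-array omissions without array 3 (-0.85, limma adjusted p = 0.00531), the 1 array where it was positive. Npl, a sialic acid lyase, was at -0.39 ± 0.10 (SE, limma adjusted p = 0.0833). None of 26 proteoglycan chain synthesis genes passed, against 10 at an unadjusted p under 0.05, with a median of -0.08. The sulfotransferase Chst12 (-0.80 ± 0.18) and B3gat3, which adds glucuronate to the linker of the chains (0.50 ± 0.14), had the largest ratios there. Chst12 (limma adjusted p = 0.0529) passed in 7 of 17 alternatives, among them without array 3 (-1, limma adjusted p = 0.005). In N-glycan synthesis none of 32 passed, 6 had an unadjusted p under 0.05 and the median was -0.02, with Man2a1 at -0.61 ± 0.14 and Dpm3 at 0.58 ± 0.22; Dpm3 passed without array 1 (0.84) and Man2a1 with array weights (-0.54).

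Of 24 genes of hyaluronan turnover, receptors and binding proteins, 1 passed. This was Ptx3, a pentraxin that helps to crosslink hyaluronan in the matrix. Its ratios were 2.72 and 1.64 on arrays 1 and 3 and 2.54, 1.65 and 2.46 on arrays 4 to 6, with a mean of 2.20 ± 0.20 (SE, n = 5, limma adjusted p = 0.000967), 4.59-fold. Ptx3 exceeded 1.6 on each of the 5 arrays. The hyaluronan receptor Lyve1 was negative on all 6 arrays, from -0.32 to -3.01 (array 2), but did not pass (-1.13 ± 0.29, limma adjusted p = 0.0697). It passed in 5 of 17 alternatives, among them without array 2 (-0.72, limma adjusted p = 0.0249) and without array 3 (-1.39, limma adjusted p = 0.0168). Itih5, an inter-alpha-trypsin inhibitor heavy chain, was at -0.47 ± 0.12. Tnfaip6, named after its value was seen because it transfers such heavy chains to hyaluronan, was at 0.03 ± 0.12. The median of the list was 0.02.

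Factors of the unfolded protein and integrated stress response are known to act on hexosamine genes. Their part in the enzyme ratios was not tested. In the list of that response, 2 of 25 passed. Atf4, which encodes that pathway's transcription factor, was at 1.69 ± 0.16 (SE, n = 6, limma adjusted p = 0.000881), with every array between 1.15 and 2.42. Ppp1r15a, a phosphatase subunit acting in it, was at 0.83 ± 0.17 (SE, n = 4, limma adjusted p = 0.0499) and lay just inside the threshold: without array 4, which holds no value of it, its ratio and SE were the same and the adjusted p was 0.0626. Chac1 (0.74 ± 0.18) and Ddit3 (0.72 ± 0.17) did not pass, but did without array 6 (0.92) and without array 3 (0.92) respectively. The median of the list was 0.16.

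**Figure D4:**
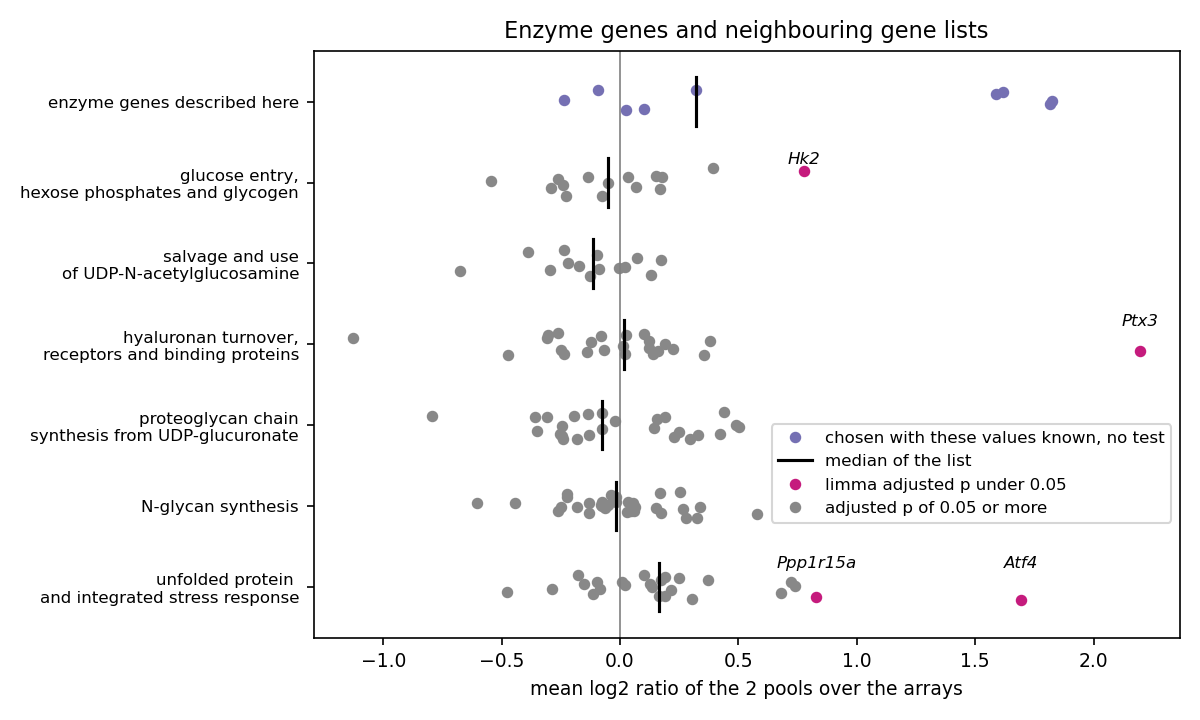
Mean log2 ratio of both pools (horizontal axis) for the 9 enzyme genes (purple) and the genes of 6 neighbouring lists; magenta genes were called in the limma fit and grey ones were not, and black bars are list medians. Hk2, Ptx3, Ppp1r15a and Atf4 passed, and list medians lay between -0.11 and 0.16.

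Markers of other cells that could hold these enzymes were read in the same fit. Mesothelium, which covers the depot and is known to make hyaluronan, had 6 of 10 markers tested: Krt18 passed (0.69 ± 0.15), Krt8 was at -0.50 ± 0.12 and Msln at 0.14 ± 0.12, with a median of 0.06. No marker passed among 8 of preadipocytes and fibroblasts (median -0.03), 8 of macrophages (0.11), 5 of neutrophils (0.36) and 6 of endothelium (-0.20); 0, 1, 3 and 2 of them had an unadjusted p under 0.05. Of 5 smooth muscle markers, 3 passed and were higher, Cnn1 (1.26 ± 0.27), Des (0.90 ± 0.12) and Acta2 (0.70 ± 0.11), while Tagln (0.34 ± 0.12) and Myh11 (0.06 ± 0.12) did not pass. Of 7 seminal vesicle and epididymis markers, 5 passed and were lower. These were the seminal vesicle secretory genes Svs5 (-5.47 ± 0.48), Svs2, Pate4, Svs6 and Svs4. The others on that list, Lcn8 (0.13 ± 0.11) and Defb1 (-0.001 ± 0.149), did not pass. The part of these cell types in the enzyme ratios was not tested.

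The genes nearest to Uap1 in their 6 array values, among 7855 others with values on all arrays, were Nfkbie, an inhibitor of NF-kappaB, with a root mean square difference of 0.48 log2 units, and then Akap12 (0.74), Mas1 (0.75), Zfp326 (0.76) and Akap2 (0.77). Nfkbie had 1.38, 1.94 and 2.13 on arrays 1 to 3 and 2.75, 2.74 and 1.51 on arrays 4 to 6.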

How the data were processed

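The deposited values are normalised log ratios, taken here as log2, made by the authors from QuantArray 3.0 output scaled uniformly between dyes and smoothed by LOWESS, per the labels' protocols. The sources used here do not give the numerator, the log base, any background correction or why spots were dropped. Columns were empty only at their ends (1 to 724 of 19200 rows), and rows did not correspond between arrays. Each column was placed on probe numbers with a hidden Markov model that can only lose spots (normal scores clipped at 3, following loss 0.5, 6 rounds, numba 0.67.0); values with a posterior of at least 0.95 were kept. Since it matches arrays to each other, placement raises their correlation. It was written after the files were seen. Placement and fit were also run on simulated columns. Their lost spots followed the model's own rule, so that run cannot show how well these columns were placed. Symbols came from the platform annotation (14711 of 19200 probes with 1 symbol); probes of a gene were averaged. Ratios were fitted with limma 3.58.1 (R 4.3.3) with dye orientation as a term, at least 2 values per orientation, and Benjamini-Hochberg adjustment over all genes. No intensities were used here, so signal over background is unknown, and the number of arrays limits precision.

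The enzyme genes, pathway lists, cell type markers and motifs were chosen with earlier results of these data known. Named were all 9 enzymes, every listed gene that passed, the 2 largest that did not per pathway list, and the 5 genes nearest to the strongest enzyme with values on all arrays; a few marker genes and others named beyond this rule were chosen after their values were seen. Alternatives left out single arrays, changed the posterior, masked the enzymes, read rows as deposited, rescaled or weighted arrays, used 1 probe per gene or 1 orientation, dropped the dye term, or required all arrays.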

Additional observations from a re-analysis of the deposited data

How the results depend on the processing

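Single arrays moved counts more than values. Without 1 array in turn, 125 to 367 genes passed over the whole table against 394, 2 to 7 of the other pathway genes against 4, and 2 to 4 of the enzymes against 4. The lowest table counts came without array 5 (125 of 11823 tested), array 1 (150 of 8078) and array 4 (212 of 12863). The counts of 367 genes and 7 other pathway genes came without array 3, from 8114 and 72 tested, against 12912 and 136 in the main fit. Only 2 enzymes passed without array 1, where 5 were tested. The median of the enzymes was 0.13 without array 1, where 5 were tested, and 0.79 without array 3, where 6 were. None of the enzymes had a dye difference that passed in any of these fits (0 to 0). Uap1 stayed between 1.68 and 1.90, Ugdh between 1.45 and 1.84, Gfpt2 between 1.55 and 1.64 and Has1 between 1.68 and 2.06. Gfpt2 could not be fitted without array 1 or 2, nor Has1 without array 1 or 3.

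Masking the enzymes in the placement left 3 of 8 tested enzymes called, without Gfpt2. With rows as deposited, no gene passed the limma test (489 of 13409 at an unadjusted p under 0.05). Nor did any other pathway gene (2 unadjusted) or enzyme (1 unadjusted), and the enzyme median was -0.03. Among the enzymes, Uap1 (-0.29), Gfpt2 (-0.22) and Ugp2 (-0.09) changed sign. Among other pathway genes, Hk2 (-0.08), Pygm (-0.30), Npl (0.19), Lyve1 (0.09) and Chst12 (0.02) did so too. Every value here thus rests on the placement. Array weights gave 935 genes and 15 other pathway genes, and centred and scaled arrays 9 other pathway genes. With the agonist pool in channel 1 only, 41 genes, 2 other pathway genes and 0 enzymes passed (limma), with an enzyme median of 0.15; with it in channel 2 only, 211 genes passed and the median was 0.49. Requiring all 6 arrays left 5 enzymes tested, 2 of them called, with a median of 0.10. As natural logs the median would be 0.46.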
